A study of Homo sapiens with 21 samples.

Results

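RNA polymerase II (Pol II) and the proteins that act on it while it transcribes are the genes described here. The members are a fixed list of Pol II subunits and elongation factors, found in the count table by their NCBI gene IDs mapped to current symbols. All 46 listed genes were present among the 28395 genes of the table, and all 46 had enough counts to be tested. By role they are 12 Pol II subunits, 2 subunits of DSIF, 4 of NELF, 4 histone chaperones, 5 members of the PAF1 complex and 6 of the super elongation complex. The others are 3 genes of TFIIS and Elongin, 2 of the 7SK particle, the histone methyltransferase SETD2, and 7 readers or phosphatases of the Pol II C-terminal domain (CTD).

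Polyadenylated RNA was sequenced from Hs578T, an established line of triple-negative breast cancer, in 7 groups of 3 libraries, each after 8 h of treatment. THZ531 is a covalent inhibitor of the kinases CDK12 and CDK13, lapatinib inhibits EGFR and ERBB2, and nilotinib inhibits ABL kinases. The study asked how kinase inhibitors change the response of these cells to THZ531. The groups received DMSO alone, THZ531 at 0.1 µM, lapatinib at 3.16 µM, nilotinib at 1.0 µM, lapatinib at 3.16 µM plus THZ531 at 0.1 µM, nilotinib at 1.0 µM plus THZ531 at 0.1 µM, or THZ531 at 1.0 µM. Groups 5 and 6 are called the lapatinib combination and the nilotinib combination here, and the groups with 0.1 µM THZ531, lapatinib or nilotinib alone are called the single agents. Total counts per library ran from 106023299 to 112229052 with DMSO, 105036702 to 106791643 with 0.1 µM THZ531, 97612207 to 102092309 with lapatinib, and 106148878 to 108180338 with nilotinib. They ran from 103120049 to 105119748 in the lapatinib combination, 101967991 to 104639800 in the nilotinib combination, and 102203282 to 104176583 with 1.0 µM THZ531.

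The cell-line label was compared with markers in the DMSO libraries. Mean levels in CPM (counts scaled to a common library total, after TMM scaling) were 6845 for VIM, 1374 for FN1, 531.3 for CDH2, 201.4 for ZEB1, 2827 for SPARC and 8060 for COL1A1, which mark mesenchymal cells. The receptors that define triple-negative tumours by their absence had 0.364 CPM for ESR1, 0 for PGR and 37.5 for ERBB2. Epithelial and luminal markers had 0.205 CPM for CDH1, 0.0364 for EPCAM, 0 for KRT19, 17.5 for GATA3, 20.8 for KRT8 and 83.7 for KRT18. Of the leukocyte and endothelial markers, CD68 had 110.6 CPM, PTPRC 1.05, PECAM1 0.378, and CD3E and CDH5 0. In these libraries the mesenchymal markers were high, with little ESR1 and no PGR counts. ERBB2, GATA3, KRT8, KRT18 and CD68 were also detected, so these markers alone do not identify the line.

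Pol II stops shortly after it leaves a promoter, held by DSIF and NELF, and goes on when the kinase P-TEFb phosphorylates these factors and the CTD of the largest subunit. The 7SK particle keeps P-TEFb inactive, the super elongation complex brings it to the polymerase, and the PAF1 complex, TFIIS, Elongin and histone chaperones help the polymerase through chromatin. CDK12 and CDK13 phosphorylate the CTD along the gene, CTD phosphatases remove the marks, and cells without these kinases are known for incomplete transcription of long genes.

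Some libraries lay apart from the others of their group. The distance used was the median over members of the absolute log2 deviation from the mean of the other libraries of the group. It was 0.238 for replicate 1 of the lapatinib combination, 0.266 for replicate 1 of the nilotinib combination, 0.209 for its replicate 3, 0.213 for replicate 1 of 1.0 µM THZ531 and 0.2 for its replicate 2. The lowest was 0.045, for replicate 2 of 0.1 µM THZ531. Results that change when 1 of these libraries is left out are given with and without it. The samples are described as coming from 3 separate experiments, but no source ties a replicate number to an experiment, and the p-values measure the spread between these samples.

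All changes are relative to the scaling. With TMM scaling, the median log2 fold change (log2 FC) of all 16036 tested genes against DMSO was -0.01 in the lapatinib combination, the nilotinib combination and 1.0 µM THZ531 alike. Scaling to the 13 mRNAs encoded in mitochondria moved these medians to -0.69, -0.63 and -0.55. With library size alone they were -0.34, -0.32 and -0.27, and with upper-quartile scaling 0.15, 0.13 and 0.19. Lapatinib and nilotinib alone moved only with mitochondrial scaling, to -0.15 and -0.18. The mitochondrial mRNAs made up 1.25% of counts with DMSO, 1.22% with 0.1 µM THZ531, 1.38% with lapatinib and 1.4% with nilotinib. They made up 1.6% in the lapatinib combination, 1.56% in the nilotinib combination and 1.53% with 1.0 µM THZ531. Single libraries ran from 1.193% to 1.353% with DMSO and from 1.36% to 1.781% with 1.0 µM THZ531. Replicate 1 of nilotinib (1.559%) and replicate 2 of lapatinib (1.51%) lay above replicate 1 of either combination (1.488% and 1.45%). The part of this shift of the mitochondrial share in the results was not tested.

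A member was called lower or higher at an adjusted p under 0.05 from edgeR, corrected over all 16036 genes. All comparisons with DMSO share the same 3 DMSO libraries. With 0.1 µM THZ531, 2 of 46 members were lower (4.31% of all tested genes) and 0 were higher (1.78% of all genes). At an unadjusted p under 0.05 there were 5 members in either direction, and DESeq2 called 2 lower and 0 higher. A fit of only these 2 groups called 3 lower (6.97% of all genes) and 1 higher (3.41%), and mitochondrial scaling called 0 lower (1.5%) and 0 higher (0.256%) by edgeR, again with 5 at an unadjusted p under 0.05. Lapatinib alone gave 0 lower (0.0561% of all genes) and 0 higher members (0.256%) in edgeR, with 4 at an unadjusted p under 0.05 and 0 by DESeq2. Nilotinib alone also gave 0 lower (0.0998%) and 0 higher members (0.243%) in edgeR, with 4 at an unadjusted p under 0.05 and 0 by DESeq2. Here and below, counts at an unadjusted p or by DESeq2 are given without the shares of all genes. Such counts are therefore not read as a result about the members. All levels are bulk RNA values, in which fewer cells and less RNA per cell cannot be told apart.

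The lapatinib combination had 17 of 46 members lower than DMSO (37.0%, against 37.8% of all tested genes) and 17 higher (37.0%, against 34.3%). In the nilotinib combination 15 members were lower (32.6%, against 37.3%) and 18 higher (39.1%, against 33.7%). THZ531 at 1.0 µM had 15 lower (32.6%, against 36.8%) and 13 higher (28.3%, against 33.1%). The members' shares lay near those of all genes, so the number of calls does not set them apart. Past a log2 FC of 1 in size, 6 members were lower (21.3% of all genes) and 1 higher (7.9%) in the lapatinib combination. The nilotinib combination also had 6 lower (20.8%) and 1 higher (6.54%), and 1.0 µM THZ531 had 6 lower (18.9%) and 0 higher (5.77%). The median log2 FC of the members was 0.03, 0.04 and -0.17 in the order above. In all 3 of these treatments, which share the DMSO libraries, 11 members were lower (30.8% of all genes), 12 were higher (27.2%), and 8 were called in none (17%).

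Which side a member called higher fell on depended on the scaling. All members called lower with TMM were also called lower with mitochondrial scaling. They were 17 in the lapatinib combination, 15 in the nilotinib combination and 15 with 1.0 µM THZ531. With mitochondrial scaling the lapatinib combination had 27 members lower and 1 higher (58.4% and 5.3% of all genes), the nilotinib combination 26 and 1 (55.9% and 4.83%), and 1.0 µM THZ531 30 and 0 (52.5% and 4.35%). Library size alone gave 26 lower and 11 higher (48.4% and 20.9% of all genes), 24 and 11 (47.1% and 20.5%), and 28 and 9 (45.6% and 21%). Upper-quartile scaling gave 14 lower and 22 higher (33.1% and 40.6% of all genes), 11 and 22 (33.1% and 39.4%), and 12 and 17 (30.5% and 41.4%). Each scaling moves all genes by nearly the same amount, so which members turn follows from the size of their change with TMM. Of the members called higher with TMM, 11 of 17 in the lapatinib combination, 12 of 18 in the nilotinib combination and 6 of 13 with 1.0 µM THZ531 had a log2 FC below 0 with mitochondrial scaling. Most of these members were not called with that scaling. Of the members called higher with TMM it called 1, 1 and 0 lower, and 1, 1 and 0 still higher, in the same order. Calls named below are with TMM unless another scaling is given. Leaving out 1 library at a time gave 31 to 35 called members in the lapatinib combination, 32 to 34 in the nilotinib combination and 27 to 32 with 1.0 µM THZ531. Such ranges, here and in the closing section, come without the shares of all genes and show only how stable the counts were. The heat map of all members shows the members of each role beside each other.

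**Figure D1:**
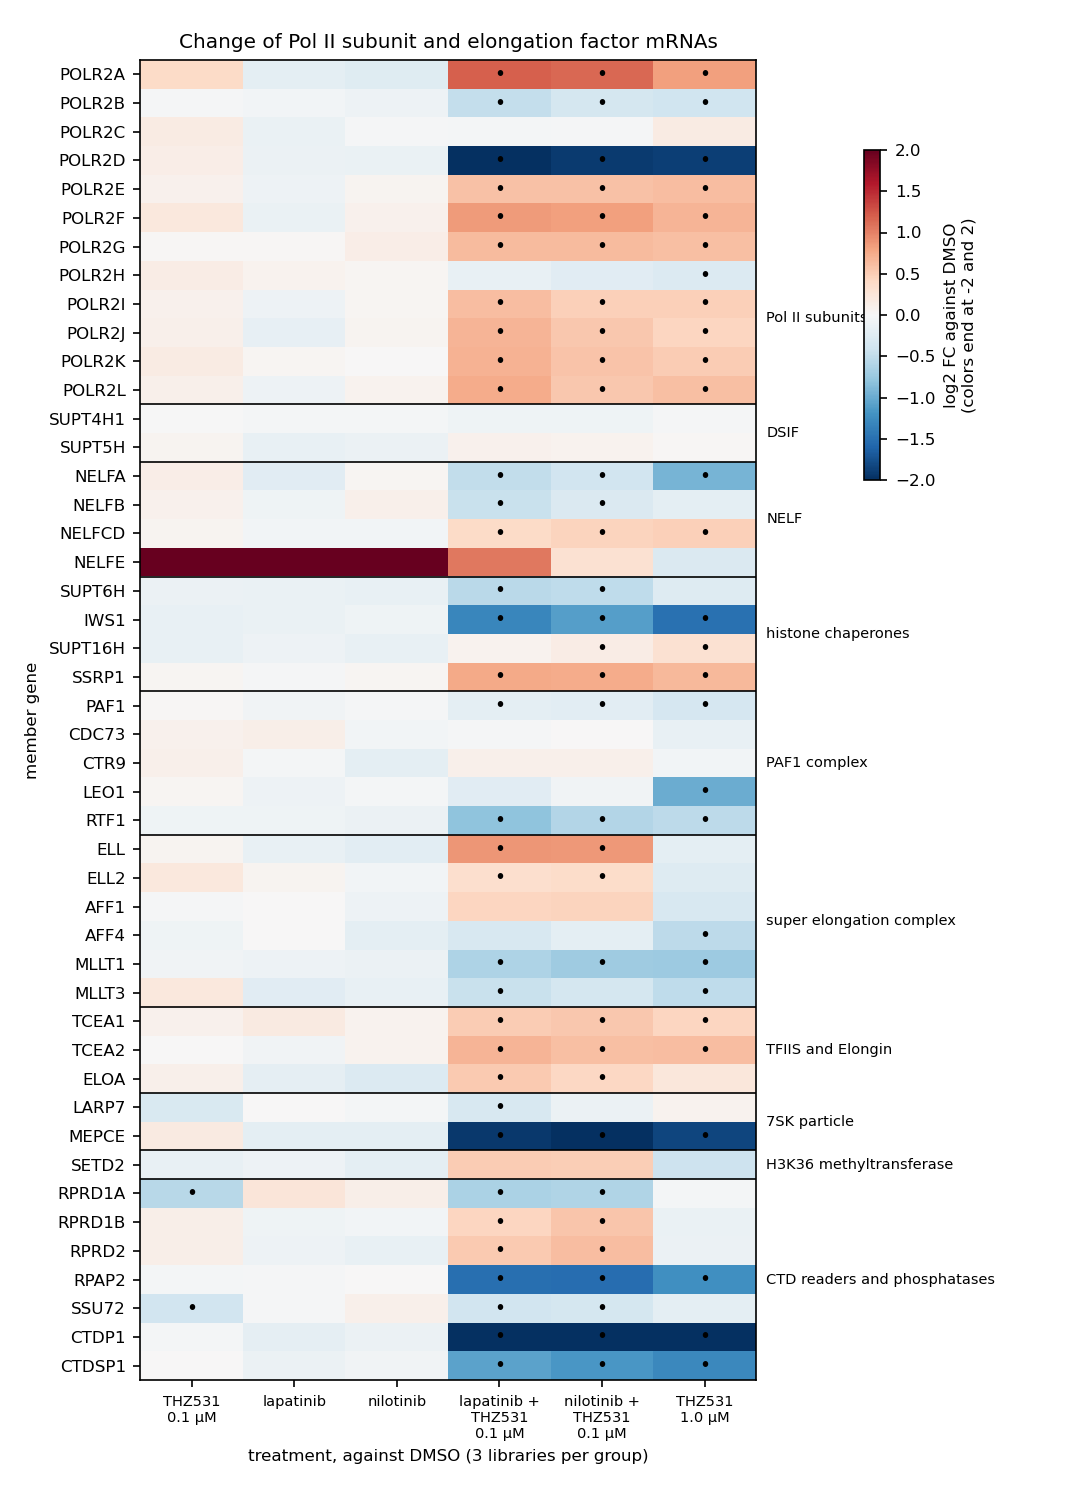
Log2 FC against DMSO (color, ending at -2 and 2) of the 46 members, in order of role, in 6 treatments, from edgeR with TMM scaling. Dots mark members called at an adjusted p under 0.05, and all but the 2 with 0.1 µM THZ531 lie in the combinations and 1.0 µM THZ531, where 11, 12 and 6 of the higher members fall below 0 with mitochondrial scaling.

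Promoters are shown for the 3 lowest and the 3 highest called members of the lapatinib combination that have a RefSeq promoter entry, because these 6 are the extremes in either direction. Each runs 5′ to 3′ on the gene's strand from 90 bases before the start of the first RefSeq promoter entry of the gene to 20 bases from it onward, in GRCh38.p14. For CTDP1 and POLR2F that start lies inside the gene span printed below, and for the other 4 it is the first base of that span on the gene's strand. The 3 lowest are CTDP1 (chr18:79679713-79679822, plus strand), POLR2D (chr2:127858136-127858245, minus strand) and MEPCE (chr7:100428700-100428809, plus strand). The 3 highest are POLR2A (chr17:7484276-7484385, plus strand), ELL (chr19:18522051-18522160, minus strand) and POLR2F (chr22:37953609-37953718, plus strand). Capitals mark, on either strand, the GC box GGGCGG, the ETS motif written CCGGAAG, the TATA box as TATAAA and the CCAAT box.
CTDP1: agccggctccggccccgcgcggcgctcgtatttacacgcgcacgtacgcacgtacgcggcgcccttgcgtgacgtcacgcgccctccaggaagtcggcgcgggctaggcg
POLR2D: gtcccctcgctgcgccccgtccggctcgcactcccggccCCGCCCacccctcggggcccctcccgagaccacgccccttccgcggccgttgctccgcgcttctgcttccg
MEPCE: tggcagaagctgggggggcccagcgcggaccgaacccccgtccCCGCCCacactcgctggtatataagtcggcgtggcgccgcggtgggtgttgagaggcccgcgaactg
POLR2A: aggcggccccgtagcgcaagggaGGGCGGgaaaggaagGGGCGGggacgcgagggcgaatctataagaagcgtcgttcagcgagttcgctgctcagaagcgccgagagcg
ELL: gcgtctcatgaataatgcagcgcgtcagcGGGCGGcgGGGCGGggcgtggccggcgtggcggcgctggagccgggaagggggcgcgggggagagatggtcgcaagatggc
POLR2F: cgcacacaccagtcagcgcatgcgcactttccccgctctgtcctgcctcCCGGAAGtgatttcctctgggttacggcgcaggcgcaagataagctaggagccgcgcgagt
GGGCGG occurs in the windows of POLR2D, MEPCE, POLR2A and ELL, CCGGAAG in that of POLR2F, and none of the 4 motifs in that of CTDP1. RefSeq had promoters of 300 bases (250 before and 50 after the start) for 39 of the 46 members, without CDC73, ELL2, POLR2G, POLR2I, POLR2J, POLR2K and TCEA1, and for 12271 tested genes. In these longer windows GGGCGG was present in 74.4% of the members and 66.5% of all tested genes, CCGGAAG in 25.6% and 17.6%, TATAAA in 2.56% and 6.53%, and CCAAT in 23.1% and 36.5%. These matches describe letters only.

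The 12 Pol II subunits were called mostly higher. In each of the 3 treatments 8 subunits were called higher with TMM, but 4, 5 and 3 of them had a log2 FC below 0 with mitochondrial scaling. Of all tested genes 34.3%, 33.7% and 33.1% were higher with TMM. The 8 were the same genes each time, POLR2A, POLR2E, POLR2F, POLR2G, POLR2I, POLR2J, POLR2K and POLR2L. POLR2B and POLR2D were called lower in all 3 treatments, POLR2H only with 1.0 µM THZ531, and POLR2C in none, while mitochondrial scaling called POLR2H lower in all 3 and POLR2C in the combinations. POLR2H was no longer called with 1.0 µM THZ531 without replicate 3 of DMSO or without replicate 1 of 1.0 µM THZ531. The median log2 FC of the subunits was 0.63, 0.54 and 0.50 with TMM, and -0.05, -0.08 and -0.03 with mitochondrial scaling. That of all tested genes was -0.01 in each treatment with TMM, and -0.69, -0.63 and -0.55 with mitochondrial scaling. Summed over the 12 subunits, the level was 1298 ± 41.9 CPM (SD, n = 3) with DMSO, 1433 ± 16.6 with 0.1 µM THZ531, 1216 ± 50.1 with lapatinib and 1269 ± 18.5 with nilotinib. It was 1884 ± 24.7 CPM in the lapatinib combination, 1798 ± 50.2 in the nilotinib combination and 1704 ± 70.1 with 1.0 µM THZ531. Per kilobase of the canonical transcript, levels with DMSO ran from 9.83 CPM per kb for POLR2D to 334.5 for POLR2L, with POLR2A at 35.8.

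POLR2A (NCBI gene 5430, chr17:7484366-7514616 in GRCh38, plus strand) encodes the largest subunit, which carries the CTD and part of the catalytic center. Its levels in replicates 1 to 3 were 209, 262 and 208 CPM with DMSO, 259, 294 and 334 with 0.1 µM THZ531, 171, 218 and 202 with lapatinib, and 159, 203 and 208 with nilotinib. They were 367, 604 and 576 CPM in the lapatinib combination, 361, 547 and 599 in the nilotinib combination, and 455, 330 and 411 with 1.0 µM THZ531. All 9 libraries of these last 3 groups lay above every DMSO library, while replicate 2 of 1.0 µM THZ531 lay within the range of 0.1 µM THZ531. POLR2A rose in the lapatinib combination by a log2 FC of 1.19 (SE 0.191, adjusted p 1.35e-05 from edgeR), the highest of the members called there. In the nilotinib combination it rose by 1.15 (SE 0.191, adjusted p 2.07e-05). At 1.0 µM THZ531 the log2 FC was 0.82 (SE 0.19, adjusted p 0.000745). With mitochondrial scaling the values were 0.50 and 0.52 in the combinations, both still called, and 0.27 with 1.0 µM THZ531, no longer called (adjusted p 0.176). At 0.1 µM THZ531 the log2 FC of 0.39 was not called (SE 0.189, adjusted p 0.269). Lapatinib alone gave -0.20 (adjusted p 0.956) and nilotinib alone -0.25 (adjusted p 0.73), also not called.

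POLR2F (gene 5435, chr22:37953663-38041915, plus strand) and POLR2E (gene 5434, chr19:1086574-1095375, minus strand) encode small subunits that Pol I and Pol III also contain. POLR2F was at 31.5, 31.7 and 34.9 CPM with DMSO, 69.8, 52.4 and 55.4 in the lapatinib combination, 64.4, 60.1 and 48.7 in the nilotinib combination, and 45.4, 55.2 and 56 with 1.0 µM THZ531. The 9 single-agent libraries lay between 26.6 and 38.6 CPM, below all libraries of the last 3 groups. Its log2 FC was 0.86 in the lapatinib combination (SE 0.122, adjusted p 3.03e-06 from edgeR), 0.82 in the nilotinib combination and 0.68 with 1.0 µM THZ531. Mitochondrial scaling left 0.18, 0.21 and 0.15, none of them called. POLR2E was at 111, 125 and 120 CPM with DMSO and at 168, 196 and 183 with 1.0 µM THZ531. It was at 188, 160 and 185 CPM in the lapatinib combination, 193, 178 and 162 in the nilotinib combination, and 104 to 129 with the single agents. Its groups also split without overlap, with the combinations and 1.0 µM THZ531 high. At 1.0 µM THZ531 POLR2E rose by a log2 FC of 0.62 (SE 0.077, adjusted p 6.15e-07), and with mitochondrial scaling by 0.09, not called. In both combinations POLR2E was called higher at 0.58, and its sign turned with mitochondrial scaling, to -0.10 and -0.03, neither of them called.

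POLR2D (gene 5433, chr2:127843553-127858155, minus strand) encodes a subunit of the stalk, which binds beside the RNA exit. Its levels were 47.9, 51.6 and 49 CPM with DMSO, 11.1, 13.3 and 12 in the lapatinib combination, 13.2, 12.7 and 13.4 in the nilotinib combination, and 14.7, 10.9 and 14.6 with 1.0 µM THZ531. The single-agent libraries lay between 42 and 54.9 CPM, so the groups formed a low and a high set far apart. POLR2D fell by 2.03 on the log2 scale in the lapatinib combination (SE 0.094, adjusted p 2.34e-13 from edgeR). The log2 FC was -1.92 in the nilotinib combination (SE 0.094, adjusted p 5.56e-13) and -1.89 with 1.0 µM THZ531 (SE 0.094, adjusted p 1.22e-12). POLR2G, the partner of POLR2D in the stalk, was called higher in the same treatments, though below 0 with mitochondrial scaling in the lapatinib combination.

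**Figure D2:**
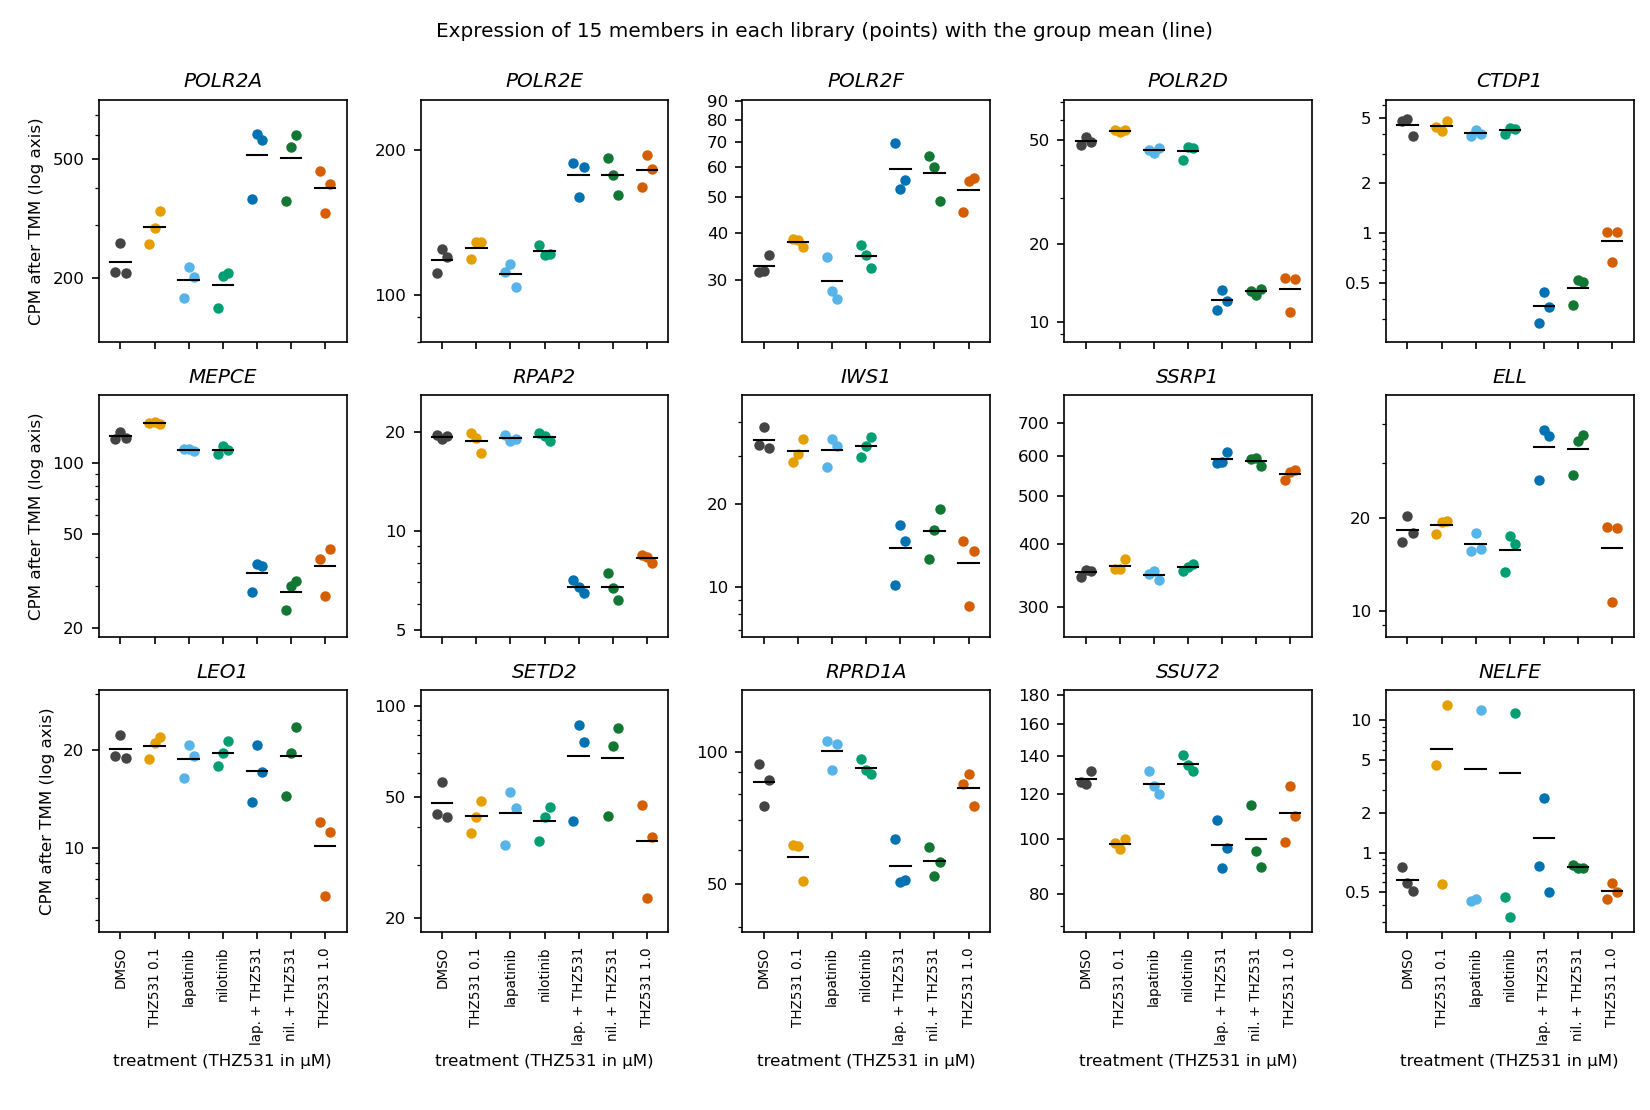
Levels of 15 members in each library (points, CPM after TMM scaling, log axis) in the 7 groups, with a line at each group mean. POLR2D, CTDP1, MEPCE, RPAP2 and IWS1 are low, and POLR2A, POLR2E, POLR2F and SSRP1 high, in the combinations and 1.0 µM THZ531. With mitochondrial scaling the log2 FC of POLR2E in the combinations is just below 0 and not called.

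The pausing factors come next. DSIF, which binds Pol II in both pausing and elongation, has the subunits SUPT4H1, at 49.5 to 61.7 CPM over all 21 libraries, and SUPT5H, at 111 to 143 CPM. With TMM 0 of the 2 were called in any comparison by edgeR, while library size alone and mitochondrial scaling each called both lower in all 3 treatments, and upper-quartile scaling called 1 of them higher. NELF holds paused Pol II. Its subunit NELFCD was called higher in all 3 treatments, at 0.39 to 0.47, but lay below 0 with mitochondrial scaling in each. NELFA was called lower in all 3, at -0.93 with 1.0 µM THZ531, and NELFB in the combinations. The NELFA call was lost in the lapatinib combination without its replicate 1, and in the nilotinib combination without its replicate 1 or without replicate 2 of DMSO.

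NELFE (gene 7936, chr6:31952087-31958971, minus strand), the NELF subunit that binds RNA, differed between libraries rather than groups. Its levels were 0.774, 0.587 and 0.511 CPM with DMSO, 4.62, 0.576 and 13 with 0.1 µM THZ531, 0.431, 0.442 and 12 with lapatinib, and 0.464, 0.323 and 11.3 with nilotinib. They were 0.787, 2.6 and 0.501 CPM in the lapatinib combination, 0.799, 0.767 and 0.759 in the nilotinib combination, and 0.441, 0.586 and 0.503 with 1.0 µM THZ531. Replicates 3 of the single agents and replicate 1 of 0.1 µM THZ531 were high, and the other libraries of the same groups lay between 0.323 and 0.576 CPM. NELFE was not called against DMSO in any treatment by edgeR.

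Histone chaperones move nucleosomes out of the way of Pol II and back. SSRP1 (gene 6749, chr11:57325988-57335892, minus strand), a subunit of the chaperone FACT, was at 344, 356 and 354 CPM with DMSO. It was at 582, 583 and 611 CPM in the lapatinib combination, 592, 595 and 572 in the nilotinib combination, 538, 558 and 562 with 1.0 µM THZ531, and 339 to 373 with the single agents. The 9 high libraries did not overlap the other 12. Its log2 FC was 0.75 in the lapatinib combination (SE 0.044, adjusted p 6.64e-12 from edgeR), 0.74 in the nilotinib combination and 0.65 with 1.0 µM THZ531. With mitochondrial scaling these were 0.07, 0.12 and 0.12, none of them called. SUPT16H, the other subunit of FACT, was called higher at 0.15 in the nilotinib combination and 0.31 with 1.0 µM THZ531, both below 0 with mitochondrial scaling, which called it lower in the nilotinib combination (-0.47, adjusted p 0.00236). The call in the nilotinib combination was lost without replicate 1 or 3 of DMSO, or without replicate 1 or 2 of the combination.

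IWS1 (gene 55677, chr2:127480812-127527336, minus strand) binds the chaperone SUPT6H and links it to elongating Pol II. It was at 32.8, 38.4 and 32.1 CPM with DMSO, 14.7, 8.57 and 13.5 with 1.0 µM THZ531, 10.2, 16.9 and 14.7 in the lapatinib combination, and 12.7, 16.1 and 19.2 in the nilotinib combination. The single agents had 27.4 to 35.3 CPM, above every library of the last 3 groups. At 1.0 µM THZ531 IWS1 fell by 1.49 on the log2 scale (SE 0.191, adjusted p 8.63e-07 from edgeR), and the log2 FC was -1.30 in the lapatinib combination and -1.11 in the nilotinib combination. SUPT6H was called lower in the combinations, at -0.54 and -0.51.

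Of the PAF1 complex, a platform for histone modification on transcribed genes, PAF1 and RTF1 were called lower in all 3 treatments, and 0 of 5 were called higher by edgeR. TMM called 2, 2 and 3 of the 5 lower in the 3 treatments, and mitochondrial scaling all 5 in each. Of all tested genes 37.8%, 37.3% and 36.8% were lower with TMM, and a larger share, given above, with mitochondrial scaling. The log2 FC of called members ran from -0.81 to -0.20 in the lapatinib combination, -0.59 to -0.22 in the nilotinib combination and -1.0 to -0.34 with 1.0 µM THZ531. PAF1 was no longer called in either combination without replicate 2 of DMSO, and in the lapatinib combination without its replicate 1. LEO1 (gene 123169, chr15:51938025-51971778, minus strand), a subunit of the complex, was at 19.2, 22.3 and 19 CPM with DMSO and at 12, 7.12 and 11.2 with 1.0 µM THZ531. It was at 13.9, 20.8 and 17.2 CPM in the lapatinib combination, 14.5, 19.7 and 23.6 in the nilotinib combination, and 16.4 to 22 with the single agents. Only the libraries of 1.0 µM THZ531 lay below all others. Its log2 FC there was -1.0 (SE 0.182, adjusted p 6.65e-05), the lowest of the complex.

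In the super elongation complex, ELL (gene 8178, chr19:18442663-18522070, minus strand) raises the rate at which Pol II moves. ELL was at 16.7, 20.3 and 17.9 CPM with DMSO, 26.5, 38.2 and 36.8 in the lapatinib combination, 27.4, 35.3 and 37 in the nilotinib combination, and 18.6, 10.7 and 18.5 with 1.0 µM THZ531. The single agents had 13.4 to 19.5 CPM, so the 6 combination libraries alone were high, and 1.0 µM THZ531 overlapped DMSO. It rose by a log2 FC of 0.89 in the lapatinib combination (SE 0.174, adjusted p 0.000134 from edgeR) and 0.86 in the nilotinib combination (adjusted p 0.00019). THZ531 at 1.0 µM gave -0.20, not called (adjusted p 0.323). Mitochondrial scaling left 0.20 and 0.24 in the combinations, not called, and -0.74 with 1.0 µM THZ531, called lower. MLLT1, a reader of acetylated histones, was called lower in all 3 treatments, at -0.62 to -0.71 in the combinations. ELL2, a paralog of ELL, was called higher in the combinations, at 0.33 and 0.37, and lay below 0 with mitochondrial scaling in both, called lower in the lapatinib combination (-0.35, adjusted p 0.0308). The ELL2 call was lost in the lapatinib combination without its replicate 2 or replicate 3 of DMSO, and in the nilotinib combination without its replicate 3. MLLT3, at 1.11 to 2.51 CPM over all libraries, was called lower in the lapatinib combination and with 1.0 µM THZ531. Those MLLT3 calls were lost without replicate 2 of DMSO, replicate 1 or 2 of the lapatinib combination, or replicate 2 or 3 of 1.0 µM THZ531.

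TFIIS lets a stalled Pol II cut its RNA and restart, and Elongin speeds it. TCEA1 and TCEA2, which encode forms of TFIIS, were called higher in all 3 treatments and ELOA of Elongin in the combinations, with TCEA1 and ELOA below 0 with mitochondrial scaling in each of these and TCEA2 just below 0 in the lapatinib combination. The called values ran from 0.50 to 0.68 in the lapatinib combination, 0.42 to 0.61 in the nilotinib combination and 0.43 to 0.62 with 1.0 µM THZ531. The median of the 3 genes was 0.52, 0.54 and 0.43 with TMM and turned to -0.16, -0.08 and -0.12 with mitochondrial scaling.

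In the 7SK particle, MEPCE (gene 56257, chr7:100428790-100434118, plus strand) puts the methyl cap on 7SK RNA. It was at 126, 135 and 128 CPM with DMSO, 28.2, 37.3 and 36.4 in the lapatinib combination, 23.7, 30.1 and 31.5 in the nilotinib combination, and 39, 27.3 and 43 with 1.0 µM THZ531. With the single agents it was at 109 to 149 CPM, far above those 9 libraries. MEPCE fell by 1.93 on the log2 scale in the lapatinib combination (SE 0.133, adjusted p 8.54e-11 from edgeR). The log2 FC was -2.19 in the nilotinib combination (SE 0.134, adjusted p 1.6e-11) and -1.83 with 1.0 µM THZ531 (SE 0.133, adjusted p 2.72e-10). LARP7, which binds the end of 7SK RNA, was called lower with TMM only in the lapatinib combination, at -0.32, and not without replicate 2 of DMSO, while mitochondrial scaling called it lower in all 3 treatments.

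CTD readers and phosphatases included the lowest member of all. CTDP1 (gene 9150, chr18:79676768-79756625, plus strand) encodes a CTD phosphatase that lets Pol II be used again. Its levels were 4.79, 4.94 and 3.89 CPM with DMSO, 4.4, 4.16 and 4.76 with 0.1 µM THZ531, 3.86, 4.24 and 3.97 with lapatinib, and 3.98, 4.31 and 4.29 with nilotinib. They were 0.284, 0.438 and 0.356 CPM in the lapatinib combination, 0.367, 0.519 and 0.506 in the nilotinib combination, and 1.01, 0.67 and 1.02 with 1.0 µM THZ531. The combinations were lowest and did not overlap 1.0 µM THZ531, which in turn lay below all DMSO and single-agent libraries. CTDP1 fell by 3.66 on the log2 scale in the lapatinib combination (SE 0.177, adjusted p 4.24e-13 from edgeR). The log2 FC was -3.29 in the nilotinib combination (SE 0.171, adjusted p 1.31e-12) and -2.34 with 1.0 µM THZ531 (SE 0.158, adjusted p 1.01e-10). Its raw counts ran from 26 to 594 per library.

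RPAP2 (gene 79871, chr1:92299059-92402056, plus strand) encodes a CTD phosphatase that also helps Pol II into the nucleus. Levels were 19.6, 19 and 19.4 CPM with DMSO, 7.09, 6.76 and 6.45 in the lapatinib combination, 7.42, 6.7 and 6.17 in the nilotinib combination, and 8.44, 8.33 and 7.99 with 1.0 µM THZ531. The single agents had 17.2 to 19.9 CPM, and as for CTDP1 both combinations lay below 1.0 µM THZ531. RPAP2 fell by 1.52 on the log2 scale in either combination (SE 0.075, adjusted p 5.77e-13 and 6.29e-13 from edgeR) and by 1.23 with 1.0 µM THZ531 (SE 0.074, adjusted p 1.82e-11). The phosphatase CTDSP1 was called lower in all 3 treatments as well, between 24.7 and 31 CPM against 62.2, 64.4 and 62.3 with DMSO. RPRD1B and RPRD2, which bind the phosphorylated CTD, were called higher in the combinations at 0.44 to 0.61 but lay below 0 with mitochondrial scaling. RPRD2 was no longer called in the lapatinib combination without its replicate 2 or 3 or replicate 3 of DMSO.

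The members called with 0.1 µM THZ531 alone are also of this role. RPRD1A (gene 55197, chr18:35989824-36067559, minus strand) encodes another reader of the phosphorylated CTD. It was at 93.9, 75.5 and 86.4 CPM with DMSO, 61.3, 61 and 51 with 0.1 µM THZ531, 106, 91 and 104 with lapatinib, and 96.2, 90.7 and 89 with nilotinib. It was at 63.5, 50.6 and 51.3 CPM in the lapatinib combination, 60.9, 52.2 and 56.1 in the nilotinib combination, and 84.4, 89.1 and 75.4 with 1.0 µM THZ531. With TMM every library with 0.1 µM THZ531, alone or combined, was below every other library, those with 1.0 µM THZ531 included. At 0.1 µM THZ531 RPRD1A fell by 0.56 on the log2 scale (SE 0.104, adjusted p 0.0026 from edgeR). With mitochondrial scaling this was -0.57 and not called (adjusted p 0.059). At 1.0 µM THZ531 the log2 FC of RPRD1A was -0.04 with TMM, not called, and -0.59 with mitochondrial scaling, called lower (adjusted p 0.00156), so the contrast between the doses depends on the scaling.

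SSU72 (gene 29101, chr1:1541673-1574863, minus strand) encodes a CTD phosphatase of transcription termination. It was at 126, 125 and 132 CPM with DMSO, 98.3, 96.1 and 99.9 with 0.1 µM THZ531, 132, 124 and 120 with lapatinib, and 141, 135 and 132 with nilotinib. It was at 108, 88.8 and 96.4 CPM in the lapatinib combination, 115, 95.3 and 89.2 in the nilotinib combination, and 98.9, 124 and 110 with 1.0 µM THZ531. With 0.1 µM THZ531 all 3 libraries were below those with DMSO, lapatinib and nilotinib, by a log2 FC of -0.38 (SE 0.09, adjusted p 0.0153 from edgeR). The call was lost without replicate 3 of DMSO (-0.35, adjusted p 0.0632), replicate 1 of 0.1 µM THZ531 (-0.38, adjusted p 0.0572) or its replicate 2 (-0.36, adjusted p 0.069), and with mitochondrial scaling (-0.38, adjusted p 0.293), while the log2 FC moved little.

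SETD2 (gene 29072, chr3:47016436-47164840, minus strand) encodes the enzyme that trimethylates histone H3 behind Pol II. Its levels were 44, 56.3 and 43.1 CPM with DMSO, 41.9, 86.4 and 76.3 in the lapatinib combination, 43.3, 73.6 and 84.4 in the nilotinib combination, and 47.3, 23.4 and 37.1 with 1.0 µM THZ531. The single agents had 34.9 to 52 CPM. In both combinations replicates 2 and 3 lay above every DMSO library and replicate 1 did not, and 1.0 µM THZ531 had its low library in replicate 2. SETD2 was not called against DMSO with TMM in any treatment. With mitochondrial scaling it was called lower with 1.0 µM THZ531 (-0.97, adjusted p 0.000144), and the values in the combinations turned from 0.51 and 0.49 to -0.17 and -0.14, not called.

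The combinations and 1.0 µM THZ531 were compared directly, to ask whether 0.1 µM THZ531 with a second inhibitor acts on the members as the 10-fold dose does. Against 1.0 µM THZ531, the lapatinib combination had 6 members lower (13.0%, against 16.1% of all tested genes) and 10 higher (21.7%, against 12.8%). The nilotinib combination had 3 lower (6.52%, against 13.0%) and 8 higher (17.4%, against 11.2%). A fit of only the groups compared called fewer, 3 lower and 4 higher members in the lapatinib combination (8.26% and 7.64% of all genes) and 1 lower and 4 higher in the nilotinib combination (6.29% and 6.28%). Mitochondrial scaling, which moved the median of all genes to -0.16 and -0.11 here, gave 7 lower and 7 higher members in the lapatinib combination (16% and 5.96% of all genes). In the nilotinib combination it gave 3 lower and 7 higher, for which the shares of all genes are not given. Library size alone gave 11 lower and 7 higher in the lapatinib combination (21% and 10.1%), and 5 and 8 in the nilotinib combination (15.8% and 9.53%), where upper-quartile scaling gave 6 and 8 (16.9% and 9.49%). Without replicate 2 of the lapatinib combination, 6 lower and 6 higher members were called (13.4% and 9.87% of all genes), and without replicate 2 of 1.0 µM THZ531 also 6 and 6 (13.6% and 9.01%). Either way NELFA, NELFB, AFF1, ELOA, SETD2 and RPRD2 were lost and 2 members gained. For the nilotinib combination 3 lower and 5 higher were called without its replicate 2 (9.56% and 8.53% of all genes) or its replicate 3 (11.1% and 8.57%), and 4 and 5 without replicate 2 of 1.0 µM THZ531 (10.9% and 7.53%). Leaving out replicate 1 of the combination raised the number called in either direction, to 20 members for lapatinib and 15 for nilotinib. The shares of all genes are not given for these 2 fits, so the rise is not read as a result about the members.

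ELL was the highest called member in both of these comparisons, by a log2 FC of 1.09 in the lapatinib combination (SE 0.176, adjusted p 9.77e-05 from edgeR) and 1.06 in the nilotinib combination (adjusted p 0.000152). CTDP1 was the lowest, at -1.32 in the lapatinib combination (SE 0.188, adjusted p 2.66e-05) and -0.95 in the nilotinib combination (SE 0.181, adjusted p 0.000564), where a fit of only the groups compared did not call it (-0.92, adjusted p 0.0504). LEO1 was higher by 0.78 (SE 0.183, adjusted p 0.00289) in the lapatinib combination and 0.93 (SE 0.183, adjusted p 0.000738) in the nilotinib combination. SETD2 was higher by 0.93 in the lapatinib combination (SE 0.266, adjusted p 0.0122) and 0.90 in the nilotinib combination (SE 0.266, adjusted p 0.0166), although the libraries overlapped in both. Its call in the lapatinib combination was lost without its replicate 2 (0.72, adjusted p 0.0778), without replicate 2 of 1.0 µM THZ531 (0.69, adjusted p 0.0758) and in a fit of only the groups compared (0.96, adjusted p 0.062). That in the nilotinib combination was lost without its replicate 2 or 3, without replicate 2 of 1.0 µM THZ531, and in a fit of only the groups compared. POLR2A was not called in the lapatinib combination (0.37, adjusted p 0.157) or the nilotinib combination (0.33, adjusted p 0.234). It was called without replicate 1 of the lapatinib combination (0.57, adjusted p 0.0223) and without replicate 1 of the nilotinib combination (0.52, adjusted p 0.0413).

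**Figure D3:**
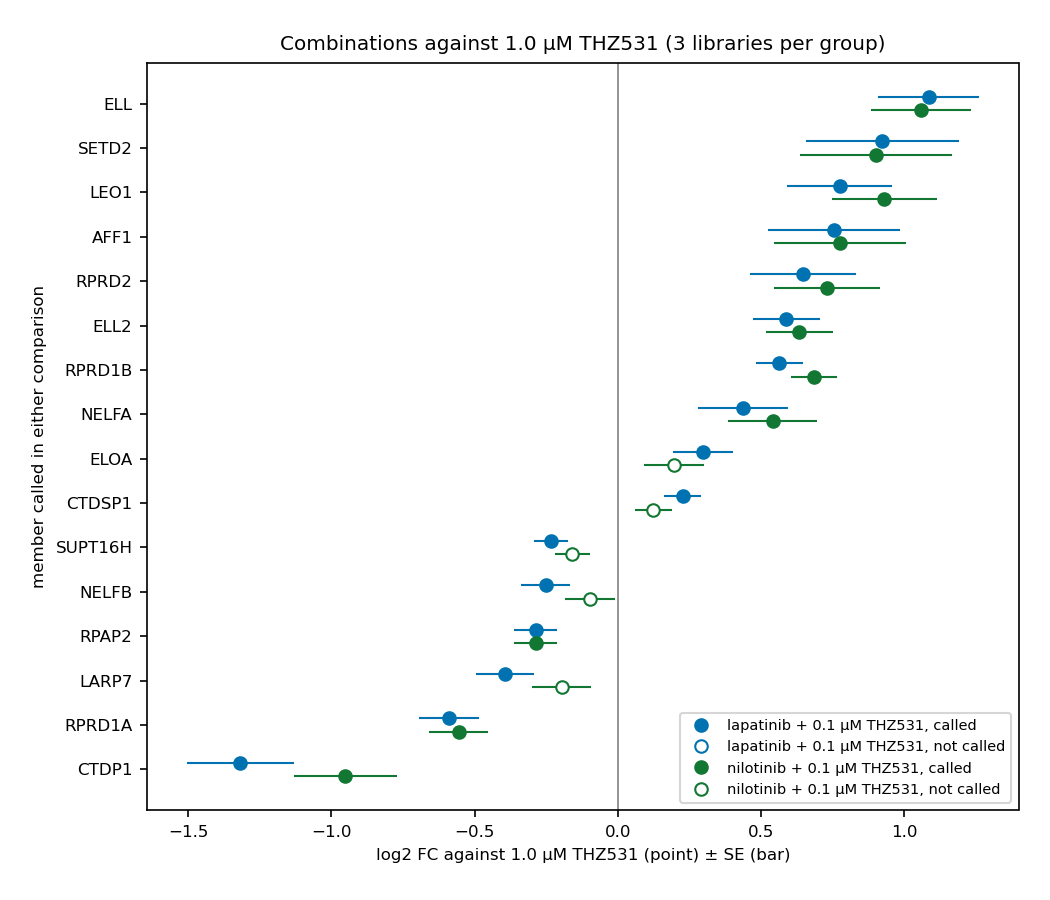
Log2 FC (points, with bars of 1 SE) of 16 members in each combination against 1.0 µM THZ531, from edgeR with TMM scaling, with filled points for calls at an adjusted p under 0.05. Members called in either comparison are shown, of which ELL lies highest and CTDP1 lowest in both combinations.

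Between the combinations themselves, 0 members were lower (0.736% of all genes) and 0 higher (0.73%) in edgeR, with 1 at an unadjusted p under 0.05 and 0 by DESeq2. POLR2A differed by 0.04 (SE 0.188, adjusted p 0.966) and CTDP1 by -0.37 (SE 0.202, adjusted p 0.504).

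The interaction asks whether a combination differs from the sum, on the log2 scale, of its single agents. For lapatinib, 10 members were lower than that sum (21.7%, against 32.0% of all tested genes) and 15 higher (32.6%, against 28.2%). For nilotinib, 12 members were lower (26.1%, against 31.2%) and 16 higher (34.8%, against 25.6%). The median of all genes moved with mitochondrial scaling to -0.52 for lapatinib and -0.41 for nilotinib, with library size alone to -0.27 and -0.21, and with upper-quartile scaling to 0.22 and 0.20. Mitochondrial scaling gave 26 lower and 0 higher members for lapatinib (44.4% and 3.7% of all genes) and 18 and 0 for nilotinib (40.1% and 3.7%) by edgeR. Library size alone gave 21 and 8 (41.1% and 14.9%), and 19 and 3 (38.4% and 12.8%). Upper-quartile scaling gave 7 lower and 23 higher for nilotinib (26.8% and 33.6%).

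CTDP1 had an interaction of -3.45 for lapatinib (SE 0.227, adjusted p 1.37e-10 from edgeR) and -3.14 for nilotinib (SE 0.222, adjusted p 4.22e-10), and its single-agent libraries lay near the DMSO level. POLR2D followed for lapatinib, at -2.05 (SE 0.129, adjusted p 7.15e-11), and MEPCE for nilotinib, at -2.18 (SE 0.184, adjusted p 5e-09). POLR2A had an interaction of 1.00 for lapatinib (SE 0.267, adjusted p 0.00313) and 1.01 for nilotinib (SE 0.267, adjusted p 0.00317). With mitochondrial scaling these were 0.44 (adjusted p 0.139) and 0.53 (adjusted p 0.0738). NELFE had the lowest interactions, at -5.00 for lapatinib (SE 1.772, adjusted p 0.0201) and -5.66 for nilotinib (SE 1.813, adjusted p 0.012). These rest on the high single-agent libraries. Without replicate 3 of lapatinib the NELFE value was -1.71 (adjusted p 0.389), without replicate 3 of nilotinib -2.30 (adjusted p 0.258), and for lapatinib without replicate 3 of 0.1 µM THZ531 -3.77 (adjusted p 0.0783).

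The Pol II subunits were set beside those of Pol I and Pol III, which share 5 of the 12 (POLR2E, POLR2F, POLR2H, POLR2K and POLR2L). The 11 subunits particular by name to Pol III had 9 lower and 0 higher in the lapatinib combination by edgeR, 8 lower and 1 higher in the nilotinib combination, and 8 and 1 with 1.0 µM THZ531. Of all tested genes 37.8% were lower and 34.3% higher in the lapatinib combination, 37.3% and 33.7% in the nilotinib combination, and 36.8% and 33.1% with 1.0 µM THZ531. The median log2 FC of the Pol III subunits was -1.15, -1.12 and -1.14, and -1.83, -1.74 and -1.67 with mitochondrial scaling. The lowest was POLR3F in the combinations, at -2.17 and -2.39, and POLR3A with 1.0 µM THZ531, at -1.84. Of 6 subunits of Pol I only, 4 were lower and 1 higher in each combination and 4 lower and 0 higher with 1.0 µM THZ531 by edgeR, with medians of -1.02, -0.87 and -1.17. The pair shared by Pol I and Pol III, POLR1C and POLR1D, had 0, 1 and 2 lower. No test compared these lists with the Pol II subunits, and the lists are given side by side.

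**Figure D4:**
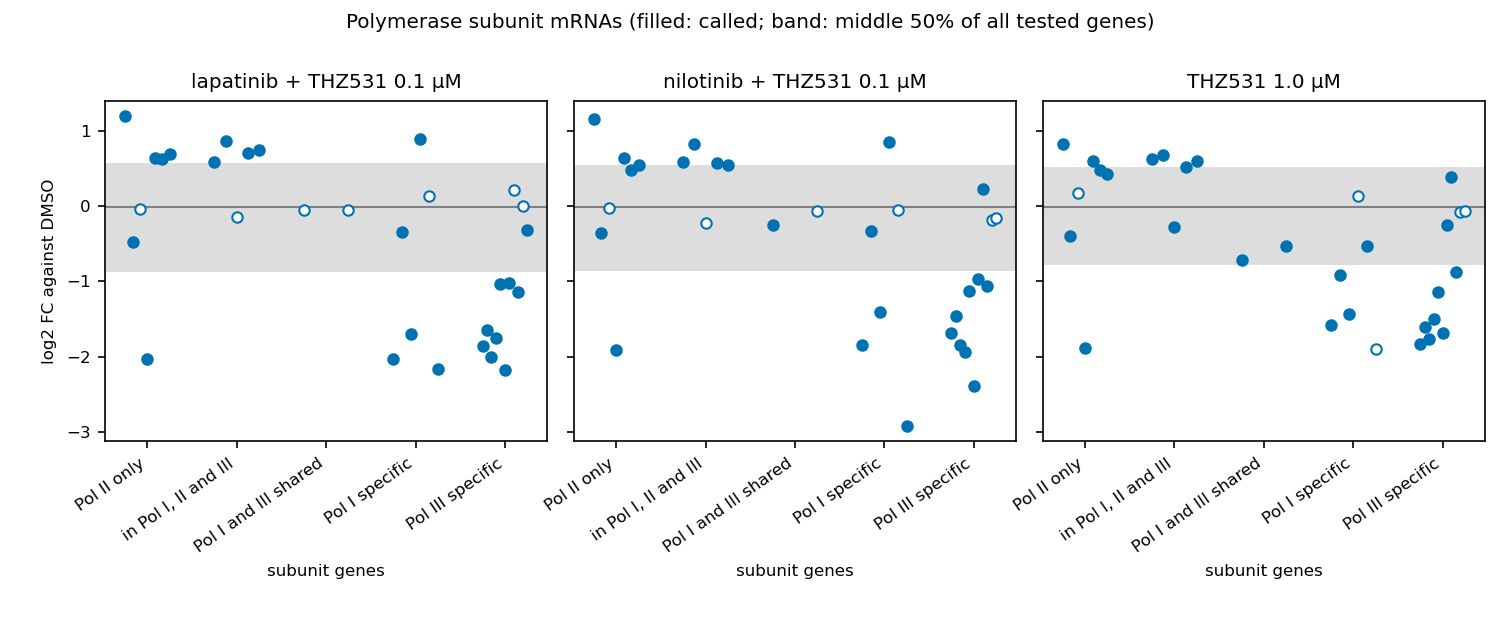
Log2 FC against DMSO (points, 1 per gene, from edgeR with TMM scaling) of subunits of Pol II, Pol I and Pol III in the combinations and 1.0 µM THZ531, with a band over the middle 50% of all tested genes and a line at their median. Pol II subunits lie mostly above the line and those of Pol III below it. With mitochondrial scaling the median of the Pol II subunits turns to -0.05, -0.08 and -0.03, and that of all tested genes moves to -0.69, -0.63 and -0.55.

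Other genes of the pathway came from fixed lists. Of 27 further elongation and CTD genes, 11 were lower and 12 higher in the lapatinib combination (37.8% and 34.3% of all genes), 10 and 10 in the nilotinib combination (37.3% and 33.7%), and 13 and 6 with 1.0 µM THZ531 (36.8% and 33.1%). Their median was 0.28, 0.20 and -0.27, turning to -0.40 and -0.43 in the combinations with mitochondrial scaling and to -0.04 and -0.10 with library size alone. RPAP1, an assembly factor of Pol II, was the lowest in the combinations at -2.52 and -2.20, and SCAF8, a CTD reader, the highest at 1.26 and 1.31. Beside the same shares of all genes, of 11 transcriptional kinases and partners 5 were lower and 4 higher in the lapatinib combination, 5 and 3 in the nilotinib combination, and 8 and 2 with 1.0 µM THZ531. CDK12, a target of THZ531, was at -2.02 and -1.65 in the combinations and -1.04 with 1.0 µM THZ531, but at 0.50 and called higher with 0.1 µM THZ531. HEXIM1, the protein of the 7SK particle that inhibits P-TEFb, was the highest kinase partner, at 1.34, 0.67 and 0.56, the last of which fell just below 0 with mitochondrial scaling.

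Genomic span was compared with the change, across genes, which are not independent replicates. Among the 46 members, Spearman's rho between log2 FC and span was -0.23 in the lapatinib combination, -0.12 in the nilotinib combination and -0.35 with 1.0 µM THZ531. Over 15855 tested genes with a span it was -0.19, -0.15 and -0.16. Single libraries against the DMSO mean gave a rho of the members from -0.35 to -0.06 in the lapatinib combination, -0.35 to 0.07 in the nilotinib combination and -0.46 to -0.16 with 1.0 µM THZ531. Without replicate 1 of the nilotinib combination its rho for the members changed sign, to 0.02, and without replicate 1 of the lapatinib combination that rho was -0.10. CTDP1, at 79858 bases, and ELL, at 79408 bases, have nearly the same span and were called in opposite directions in the lapatinib combination.

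**Figure D5:**
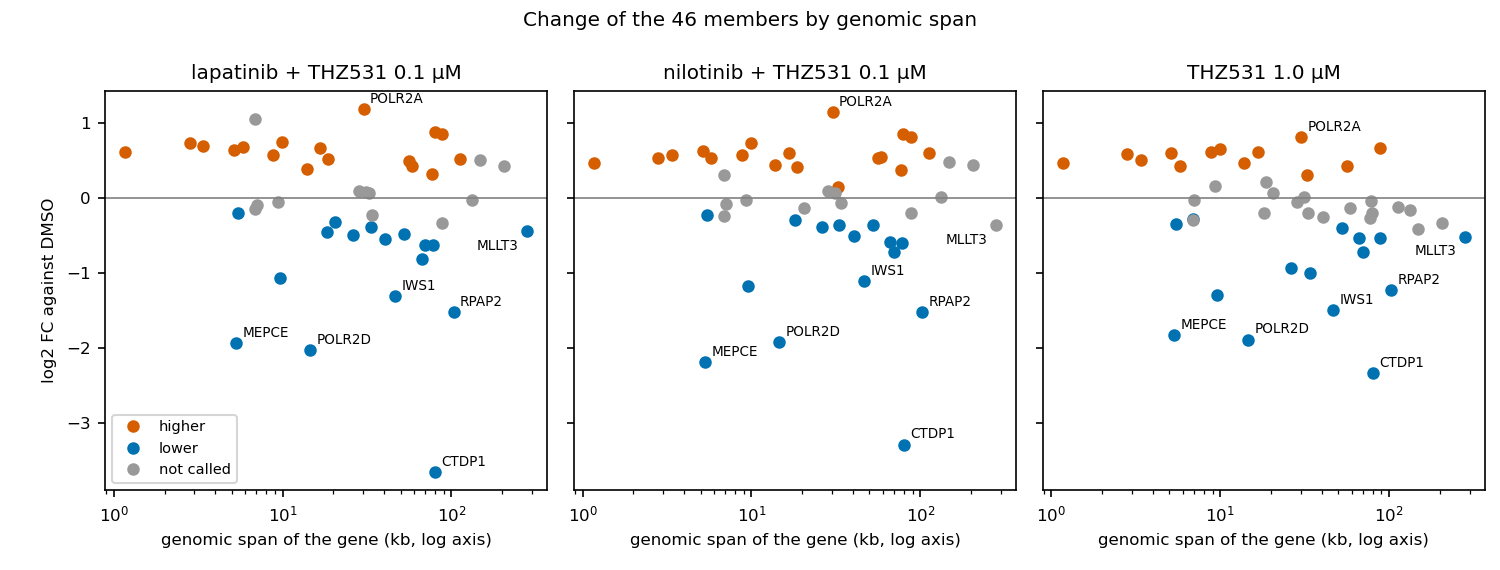
Log2 FC against DMSO (from edgeR with TMM scaling) by genomic span (kb, log axis) for the 46 members (points) in the combinations and 1.0 µM THZ531. CTDP1 and ELL have nearly the same span and opposite changes in the combinations.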

How the data were processed

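The authors sequenced unstranded polyA libraries of Hs578T RNA as paired ends, aligned them to GRCh38 with HISAT2 2.1.0 and deposited counts per NCBI gene from featureCounts, as whole numbers. The annotation, and the unit featureCounts counted (read pairs or single reads), are not given in the sources used here. Of 28395 genes, 27745 matched a current symbol. All 21 libraries (97612207 to 112229052 counts) were fitted together with edgeR 4.0.16 (limma 3.58.1, R 4.3.3), after filterByExpr and TMM scaling, with 1 mean per group and quasi-likelihood tests. Benjamini-Hochberg correction ran over the 16036 genes kept, and adjusted p under 0.05 was called. Tables and figures used Python 3.11.15, numpy 2.4.6, pandas 2.3.3, scipy 1.17.1 and matplotlib 3.10.9. Alternatives tried were RLE, upper-quartile, library-size and mitochondrial scaling, no filter, at least 10 counts in every library, a replicate block, DESeq2 1.42.0, a fit of only the groups compared, and leaving out each library. Gene positions come from RefSeq, strands and canonical transcript lengths from GENCODE v44. The members and lists were chosen with earlier results of these data known. Members given by library are POLR2A, the 4 lowest and 4 highest called members of each combination and of 1.0 µM THZ531 against DMSO, up to 4 called with each single agent by smallest p, and the 3 largest called changes in each other comparison. Other members named in the text were chosen after their values were seen. As counting was unstranded and 19 members have an overlapping gene in the table, their counts may include reads of that gene, and reads of paralogs cannot be told apart.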

Additional observations from a re-analysis of the deposited data

How the results depend on the processing

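Among 46 named pairs of a member and a comparison, 1380 values under alternatives were computed. Of these, 1352 kept their side of the threshold, and also their direction where they were called. Another 26 kept the direction and lost the call, 2 gained a call, and 0 changed direction with a call on either side. Values not called in either setting count as kept even where their sign changed. Of the 26 lost calls 14 came with mitochondrial scaling. These pairs are mostly the largest changes, and most of the values come from leaving out 1 library, often of a group outside the comparison. Many rises went to a log2 FC below 0 with mitochondrial scaling, in 11 of 17 higher members of the lapatinib combination, 12 of 18 of the nilotinib combination and 6 of 13 with 1.0 µM THZ531. Only 1, 1 and 0 of them were called lower with that scaling, and most were not called. The number of members called with 0.1 µM THZ531 was 2, and became 0 with mitochondrial scaling and 4 (3 lower and 1 higher) in a fit of only the groups compared. That fit also gave 7 members in the lapatinib combination and 5 in the nilotinib combination against 1.0 µM THZ531, where fewer libraries estimate the spread. Mitochondrial scaling gave 18 for the nilotinib interaction. With at least 10 counts in every library, Spearman's rho of log2 FC and span over all tested genes was -0.165 in the lapatinib combination, -0.114 in the nilotinib combination and -0.128 with 1.0 µM THZ531, from fewer genes. For the changes with mitochondrial scaling the cause was not tested.

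Leaving out each library in turn gave 1 to 2 members with 0.1 µM THZ531, 12 to 20 in the lapatinib combination and 8 to 15 in the nilotinib combination against 1.0 µM THZ531, and 24 to 30 and 22 to 30 for the interactions of lapatinib and nilotinib. For span, rho over all tested genes in the lapatinib combination ran from -0.195 to -0.18. For the members in the nilotinib combination it ran from -0.241 to 0.017, reversed without replicate 1 of that combination, and the cause was not tested. In a fit of only the groups compared, SETD2 (adjusted p 0.062 from edgeR) in the lapatinib combination and CTDP1 (0.0504) in the nilotinib combination were not called against 1.0 µM THZ531.

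The replicate numbers do not pair the libraries by the labels. Over 8794 genes, 36 of 63 pairs of libraries with the same number in different groups had a correlation over 0.1 (mean 0.152, range -0.83 to 0.892). Pairs with different numbers had a mean of -0.0694, and in 1 two-group comparison every same-number pair was over 0.1. Of 21 libraries, 8 correlated best with their own number, but no value without pairing was computed, so that count decides nothing. Any pairing would rest on the data only. With a replicate block, 2, 0 and 0 members were called with 0.1 µM THZ531, lapatinib and nilotinib by edgeR, 18 lower and 17 higher in the lapatinib combination (38.2% and 34.7% of all genes), 15 and 18 in the nilotinib combination (37.6% and 34.2%), and 16 and 14 with 1.0 µM THZ531 (37.1% and 33.9%). With that replicate block the NELFE interactions were -3.04 (adjusted p 0.13) and -4.0 (0.0515), not called.

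With 3 libraries per group, small differences can be missed, and 0 calls with lapatinib or nilotinib alone (edgeR, with 4 members each at an unadjusted p under 0.05 and 0 by DESeq2) does not show equal levels. Total counts near the same depth in all libraries say nothing of the RNA per cell, so a scaling is an assumption, and the direction of the smaller rises rests on it. CTDP1 and NELFE, with as few as 26 and 38 counts in a library, carry the widest counting error. mRNA levels were measured, not protein or Pol II on genes.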
